A study of Mus musculus with 7 samples.

Results

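B cells with 2 productive light chains were taken from single-cell B cell receptor libraries as the cell barcodes with exactly 1 productive heavy chain contig and exactly 2 productive light chain contigs. There were 1434 such cells among 17197 cells with 1 heavy and 1 or 2 light chains, or 8.34% (95% interval 7.93 to 8.76), and among 20052 barcodes in all. Of these, 1318 carried 2 kappa chains (kappa-kappa cells), 101 carried a kappa and a lambda chain (kappa-lambda cells) and 15 carried 2 lambda chains (lambda-lambda cells). The remaining 15763 cells had 1 light chain, 15040 of them kappa and 723 lambda. The cells came from deep cervical (dCLN), superficial cervical (sCLN) and inguinal (iLN) lymph nodes of 5xFAD mice and of WT mice, all females aged 10 to 11 months. 5xFAD mice carry human transgenes with mutations of familial Alzheimer's disease, driven by a neuronal promoter, and develop amyloid deposits in the brain. Each node and genotype had 1 library, made from hashtag-labelled cells that were pooled, and the number of animals behind each library is not given in the sources used here. No transcriptome was used here, so the label B cell rests on the receptor contigs: every cell counted had a productive heavy chain.

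A B cell normally displays a single antibody specificity, because a productive rearrangement of one light chain allele stops rearrangement of the others. This exclusion is less strict for light chains than for heavy chains. When a receptor is autoreactive or fails to pair, the cell can go on rearranging, joining V genes that lie farther out with J genes that lie farther downstream, and can then open the lambda locus. Mouse kappa V genes lie in both orientations, so that some join by deletion of the DNA between V and J and others by inversion, which keeps it. IGKJ5 is the most downstream of the functional kappa J genes, and an allele that has used it has no further J gene to move to.

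A few receptors were found in more than 1 barcode of a library, with the same heavy chain and both of the same light chains. Some of these are printed as examples, and they need not be typical of cells with 2 light chains. The junction, from the conserved cysteine codon of V to the conserved tryptophan or phenylalanine codon of J, is printed for each chain, with the bases assigned to the J gene in capitals. The receptor with the most barcodes was found in 3 barcodes of the WT dCLN library, 2 of them IgD and 1 IgM. The kappa chain with IGKV3-9 had 18, 11 and 28 unique molecular identifiers (UMIs, counts of captured transcripts) in these barcodes. The chain with IGKV4-72 had 4, 3 and 5, so the same chain was the larger one in each barcode. These 3 counts are below the median of 17 UMIs for the smaller chain over all 1434 cells.
WT dCLN heavy chain, IGHV15-2 and IGHJ1: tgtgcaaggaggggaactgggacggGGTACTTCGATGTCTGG
WT dCLN kappa chain, IGKV3-9 and IGKJ5: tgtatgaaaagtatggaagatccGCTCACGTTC
WT dCLN kappa chain, IGKV4-72 and IGKJ1: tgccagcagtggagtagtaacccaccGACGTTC
Among the receptors with 2 barcodes was a kappa-lambda receptor of the 5xFAD dCLN library with IgM. Its kappa chain had 33 and 17 UMIs and its lambda chain 12 and 9.
5xFAD dCLN heavy chain, IGHV1-50 and IGHJ2: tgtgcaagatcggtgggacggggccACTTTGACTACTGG
5xFAD dCLN kappa chain, IGKV1-110 and IGKJ1: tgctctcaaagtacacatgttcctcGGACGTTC
5xFAD dCLN lambda chain, IGLV1 and IGLJ3: tgtgctctatggtacagcaaccTTATTTTC
A class-switched example, chosen after its values were seen, was an IgG2c receptor found in 2 barcodes of the WT dCLN library, whose heavy V gene differed from the germline at 1.36% of its bases in both. One kappa chain had 29 and 41 UMIs and the other 12 and 12, and neither had a V mutation.
WT dCLN heavy chain, IGHV1-76 and IGHJ2: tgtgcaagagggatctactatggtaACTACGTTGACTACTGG
WT dCLN kappa chain, IGKV10-96 and IGKJ5: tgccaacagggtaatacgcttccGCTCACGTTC
WT dCLN kappa chain, IGKV6-23 and IGKJ2: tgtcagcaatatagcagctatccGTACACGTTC

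Recurrence of this kind could be counted for the cells that shared their heavy chain (V gene, J gene and junction) with another barcode of their library. There were 113 such cells among the 1434 with 2 light chains. Of them 85 (75.2%, 66.2 to 82.9) had a partner barcode with both of their light chains. Another 26 had a partner with only 1 of them, and 2 had partners with neither. Counted the same way, 1326 of 1377 cells with 1 light chain and a heavy chain partner had a partner with their light chain. Over pairings, both light chains were shared in 88 of 126 for cells with 2 light chains, and the light chain in 1535 of 1615 for cells with 1. The receptors with both light chains shared made 44 barcode pairs from 42 heavy chains, and the same light chain was the larger one in 35 of them (79.5%, 64.7 to 90.2). The log2 ratio of the 2 light chains correlated between the barcodes of a pair, with Pearson's r of 0.75 and Spearman's rho of 0.76 over the 44 pairs, a description over pairs that share a library. Barcodes of a pair differed at 7 bases or more. No receptor with 2 light chains was found in more than 1 of the 6 libraries.

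Both light chains were well covered. Across the 1434 cells the major chain, the one with more UMIs, had a median of 33 UMIs, and the minor chain had 17. The minor chain held a median of 37.1% of the light chain UMIs of its cell, with a range from 5.34% to 50%. In 900 cells (62.8%) the chains lay within 2-fold of each other, in 8 cells the minor chain was below 10%, and in 10 it had at most 3 UMIs. In kappa-lambda cells the kappa chain had a median of 27 UMIs and the lambda chain 25, and lambda was the major chain in 46 of 101 cells (45.5%, 35.6 to 55.8).

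The total of light chain UMIs was higher in cells with 2 light chains. It sums 2 contigs against 1, in cells chosen for their second contig, so its direction is largely set by that choice. The median total ranged from 45 to 55 over the 6 libraries in cells with 2 light chains. In cells with 1 light chain it was 25 to 31, and the groups did not overlap. The ratio of the medians was 1.77 to 1.86. On the log2 scale the difference was 0.86 ± 0.02 (SD over 6 libraries; higher in 6 of 6; exact sign-flip p = 0.031, the smallest that 6 libraries allow; adjusted p = 0.156 over 10 measures, so it did not pass 0.05). The major chain, which is by definition the larger of 2, lay 0.24 ± 0.05 (log2) above the single chain of other cells, a difference that this choice alone can give and that is not read further. Heavy chain UMIs had medians of 10 to 14 against 9 to 13, a log2 difference of 0.10 ± 0.12 (higher in 5 of 6; exact p = 0.156, adjusted p = 0.260). Over the 6 libraries together, the share of cells with 2 light chains was 4.51% at 1 to 2 heavy UMIs, 7.21% at 3 to 5, 7.81% at 6 to 10, 8.49% at 11 to 20 and 11.3% at 21 or more. Single libraries did not all keep this order: the WT iLN had 9.25% at 3 to 5, 10.3% at 6 to 10 and 6.99% at 11 to 20, and the 5xFAD iLN 6.73% at 1 to 2 and 5.42% at 3 to 5.

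**Figure D1:**
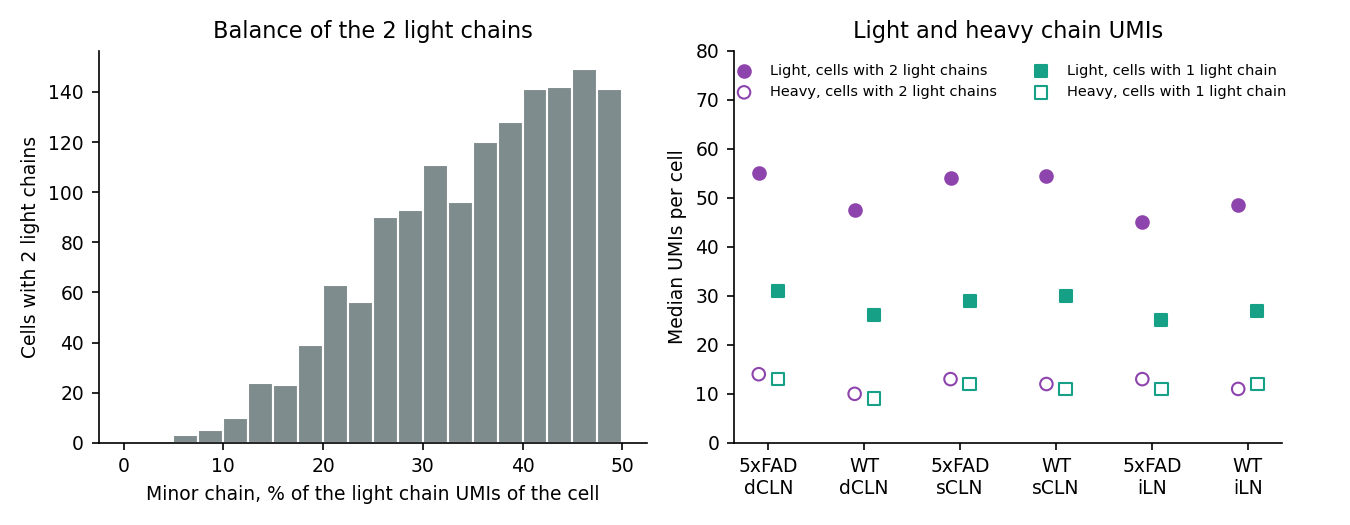
Left, number of cells with 2 light chains (y axis) by the percent of their light chain UMIs that the minor chain held (x axis, bins of 2.5 points). Right, median UMIs per cell (y axis) in each library (x axis), filled for light and open for heavy chains, circles for cells with 2 light chains and squares for cells with 1. The filled circles lie between 45 and 55 and the filled squares between 25 and 31, whereas the open symbols lie between 9 and 14.

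Values that bear on droplets with more than 1 cell, or with free RNA, stand here beside these counts. Barcodes with 2 heavy chains made up 2.59% to 5.62% of barcodes with a heavy chain, and 610 of them also had 2 light chains. Those 610 had a median heavy chain total of 24 UMIs, against 12 in cells with 1 heavy and 2 light chains, while their light chain total was 58, against 52. Their minor light chain held a median of 36.9%, close to the 37.1% above. Kappa-lambda pairs were 7.04% (5.77 to 8.49) of the 1434 cells and 7.70% (5.72 to 10.1) of the 610 barcodes. A barcode with 100 or more heavy chain UMIs of the same library carried the minor chain of 1.53% of the 1434 cells, the major chain of 1.53%, and the light chain of 1.73% of cells with 1 light chain. The same V gene, J gene and junction were found in another barcode for 80.1% of minor chains, 85.8% of major chains and 89.6% of single light chains. No kappa-kappa pair had 2 near-identical chains of the same V and J gene (at most 2 mismatches). How many of the 1434 cells were doublets that lost a heavy chain was not tested.

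The share of cells with 2 light chains lay between 7.57% and 9.76% in the 6 libraries. It was 8.31% (7.46 to 9.23; 321 cells) in the 5xFAD dCLN library and 9.76% (8.77 to 10.8; 324 cells) in the WT dCLN library. In the sCLN it was 7.66% (179 cells) in 5xFAD and 7.84% (268 cells) in WT, and in the iLN 7.57% (158 cells) in 5xFAD and 8.48% (184 cells) in WT. The 5xFAD library was lower in each node, with a difference of -1.45 points for the dCLN libraries (interval -2.81 to -0.102). For the sCLN libraries it was -0.176 points (-1.59 to 1.28), and for the iLN libraries -0.908 points (-2.57 to 0.759). The mean over nodes was -0.845 ± 0.639 points (SD; 5xFAD minus WT; exact sign-flip p = 0.25, n = 3 nodes), and 0.25 is the smallest p that 3 nodes allow. With minor chains that were also seen in another barcode not counted, the mean turned to 0.231 points (exact sign-flip p = 0.5). That rule dropped 74.9% to 85.2% of the minor chains of a library, so few cells were left. Of single light chains, 89.6% were likewise seen in another barcode. The WT dCLN library also had the largest of the shares and lay 1.92 points above the WT sCLN library (0.548 to 3.30). Its share of barcodes with 2 heavy chains, 5.62%, was likewise the largest, and its part in the difference was not tested. With 1 library per node and genotype, genotype and library cannot be told apart, and intervals cover counting error only.

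By kind, kappa-kappa cells were 7.43% in the 5xFAD dCLN library against 9.22% in WT, 7.24% against 7.14% in the sCLN, and 6.94% against 7.69% in the iLN. Kappa-lambda cells were 0.854% (33 cells) in the 5xFAD dCLN library against 0.512% (17 cells) in WT, 0.343% (8 cells) against 0.497% (17 cells) in the sCLN, and 0.431% (9 cells) against 0.783% (17 cells) in the iLN. The intervals of the 5xFAD and WT libraries overlapped in each node for both kinds. In the dCLN they overlapped little for kappa-kappa cells (6.62 to 8.30 in 5xFAD, 8.25 to 10.2 in WT). That difference was -1.79 points, with an interval of -3.10 to -0.488.

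**Figure D2:**
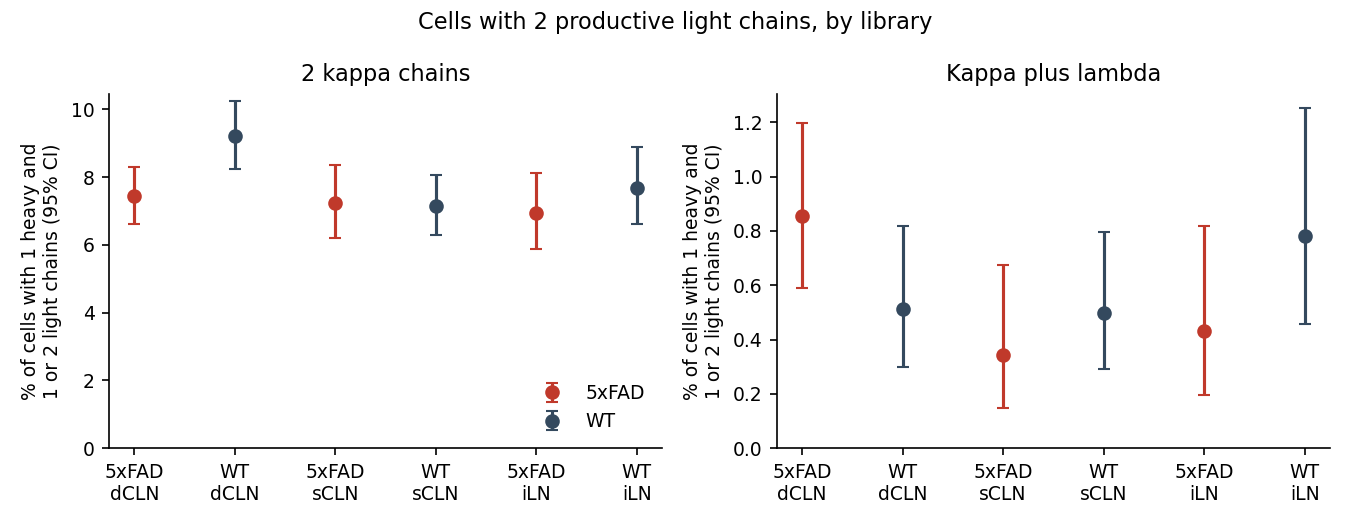
Percent of cells with 1 heavy and 1 or 2 light chains (y axes, from 0, of different height) that were kappa-kappa (left) or kappa-lambda (right) in each library (x axis), with exact 95% intervals as bars, 5xFAD in red and WT in dark blue. Kappa-kappa shares lay between 6.94% and 9.22%, with WT dCLN the largest, and kappa-lambda shares between 0.343% and 0.854%, with wide intervals.

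Most cells with 2 light chains were IgM or IgD, as were cells with 1. IgM made up 77.5% and IgD 19.3% of 1423 cells with an isotype, against 75.7% and 21.1% of 15572 cells with 1 light chain. Class-switched cells (IgG or IgA) were 46 of 1423, or 3.23% (2.38 to 4.29), against 3.20% (2.93 to 3.49). The difference over libraries was -0.0503 ± 1.75 points (SD, exact p = 1, n = 6 libraries). The switched cells were 23 IgG2b, 14 IgG2c, 4 IgG1, 3 IgA and 2 IgG3. IgG1 was 0.281% (0.0766 to 0.718) of cells with 2 light chains against 0.694% (0.569 to 0.837) of cells with 1. Only 2 of 100 kappa-lambda cells were switched, both IgG2b.

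Switched cells with 2 light chains had V differences from the germline in either light chain. Their heavy V genes differed from the germline at 2.60% ± 2.49 of bases (SD, 46 cells), against 2.60% ± 2.47 in 499 switched cells with 1 light chain. The minor chain averaged 1.08% ± 1.32 and the major chain 1.19% ± 1.29, against 1.92% ± 2.03 for single light chains. At least 1% of V bases differed in 21 minor and 20 major chains, and in both chains of 11 cells. In IgM and IgD cells with 2 light chains, 3.20% of minor and 5.09% of major chains passed the same limit, against 3.97% of single light chains. Among these cells with 2 light chains, 70 major and 44 minor chains passed it, but the heavy V gene in only 6 of 1375. In the IgD and IgM receptor printed above, IGKV3-9 differed at 3.04% in all 3 barcodes while the heavy V gene had no difference. Whether light V differences, in this receptor or in the other cells, are mutation or a difference of germline was not tested.

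The shares of the kappa J genes in kappa-lambda cells differed from those in cells with 1 kappa chain, without passing the adjusted threshold. IGKJ5 (GRCm38 chr6:70723886-70723927, plus strand) was used by 51 of 101 kappa chains of kappa-lambda cells, or 50.5% (40.4 to 60.6), against 26.3% (25.6 to 27.1) of cells with 1 kappa chain. By library the shares were 57.6% against 29.1% in the 5xFAD dCLN, 47.1% against 24.9% in the WT dCLN, 50% against 25.4% in the 5xFAD sCLN, 41.2% against 24.5% in the WT sCLN, 33.3% against 27.8% in the 5xFAD iLN, and 58.8% against 26.2% in the WT iLN. The kappa-lambda share was the higher in all 6 libraries and the groups did not overlap. The mean difference was 21.7 ± 9.59 points (SD; exact sign-flip p = 0.031, the smallest possible; adjusted p = 0.141 over 18 gene shares, so it did not pass 0.05). The upstream IGKJ1 was at 16.8% against 29.3%, lower in 6 of 6 libraries (exact sign-flip p = 0.031, adjusted p = 0.141), and IGKJ2 at 15.8% against 29.9%. In a further library that mixed nodes and genotypes and entered no comparison, IGKJ5 was at 33.3% (15.6 to 55.3, 8 of 24) against 25.4% (23.5 to 27.3).

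IGKJ5 use was also read by the rank of the kappa chain. Where the kappa chain was the minor one, 29 of 46 used IGKJ5 (63.0%, 47.5 to 76.8), against 22 of 55 (40.0%, 27.0 to 54.1) where it was the major one, and the intervals overlapped. In barcodes with 2 heavy chains and a kappa-lambda pair, 11 of 47 kappa chains used IGKJ5 (23.4%, 12.3 to 38.0). Kappa-lambda cells lay above those barcodes in 6 of 6 libraries, by 29.4 ± 15.8 points (SD, exact sign-flip p = 0.031, a comparison added after seeing the data). The barcodes with 2 heavy chains and such a pair numbered only 3 to 13 per library. IGKJ5 was in 0 of 3 of them in the 5xFAD iLN and 0 of 4 in the WT iLN. The largest difference, 58.8 points, was that of the WT iLN, so the differences of single libraries are imprecise.

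In kappa-kappa cells IGKJ5 was used by 26.5% of kappa chains (24.8 to 28.2), a difference of 0.143 points from cells with 1 kappa chain with an interval of -1.68 to 2.01. IGKJ1 was at 29.9% against 29.3%, and IGKJ2 at 28.7% against 29.9%. The 2 chains of a cell used the same J gene in 26.8% of 1318 pairs, against 26.6% for pairs of cells with 1 kappa chain. They used the same V gene in 20 pairs, or 1.52%, against 2.11% for pairs of cells with 1 kappa chain.

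**Figure D3:**
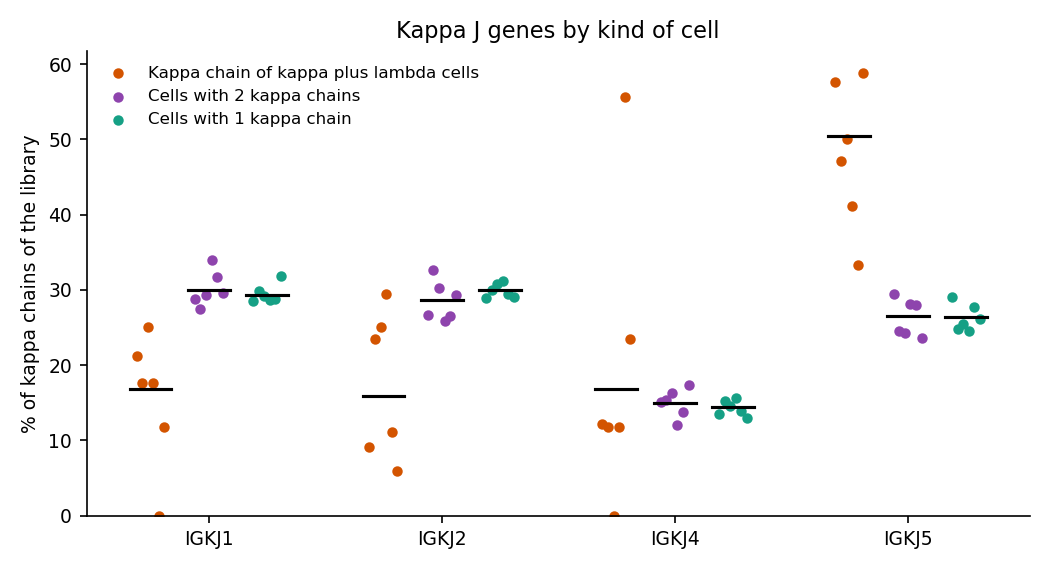
Percent of kappa chains (y axis) that used each kappa J gene (x axis) in kappa-lambda cells (orange), kappa-kappa cells (purple) and cells with 1 kappa chain (green), 1 point per library and a black line for the 6 libraries together. For IGKJ5 the orange points lie between 33.3% and 58.8%, above all green points, and the purple and green points overlap for every J gene.

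The lambda chains of kappa-lambda cells were mostly IGLV1 joined to IGLJ1, in 78 of 101 cells, and 42 of those 78 had IGKJ5 on their kappa chain. IGLV3, which joins IGLJ2, was found in 1 of 101 kappa-lambda cells (0.990%, 0.0251 to 5.39), against 82 of 723 cells with 1 lambda chain (11.3%, 9.12 to 13.9). It was lower in 5 of 6 libraries and equal, at 11.1%, in the 5xFAD iLN, where 1 of 9 cells had it (mean difference -9.51 ± 5.05 points, exact p = 0.0625, adjusted p = 0.225). In the 15 lambda-lambda cells IGLV3 was frequent: 9 of them paired IGLV1-IGLJ1 with IGLV3-IGLJ2. In 12 of the 15 the 2 junctions differed in length, and none were closer than 2 mismatches. IGLV1 and IGLV3 lie before different J clusters of the lambda locus.

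The kappa V genes of kappa-kappa cells differed from those of cells with 1 kappa chain in a small set of genes. Of 78 V genes with enough chains, 7 were higher (8.97%) and 4 lower (5.13%) at an adjusted p below 0.05, in edgeR's quasi-likelihood test with library as a block. The largest difference was in IGKV8-16 (chr6:70386672-70387252). It was used by 24 of 2636 chains of kappa-kappa cells (0.910%, 0.584 to 1.35) against 3 of 15040 cells with 1 kappa chain (0.0199%, 0.00411 to 0.0583). The ratio of these shares was 45.6, with a counting interval of 13.9 to 237. IGKV8-16, IGKV11-125 and IGKV4-69 reached the minimum of 20 chains only with those of kappa-kappa cells, so their p-values in the filtered fit are not independent of the difference. In the edgeR fit of all 99 genes with no minimum, the adjusted p of IGKV8-16 was 1.38e-09. Kappa-kappa cells had 5, 6, 4, 5, 2 and 2 such chains in the 5xFAD dCLN, WT dCLN, 5xFAD sCLN, WT sCLN, 5xFAD iLN and WT iLN libraries. Cells with 1 kappa chain had 0, 1, 0, 2, 0 and 0 in the same order. The chains were spread over all 6 libraries, and kappa-kappa cells had more of them in each, although cells with 1 kappa chain were far more numerous.

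The 24 cells with IGKV8-16 used 16 heavy V genes, 18 partner kappa V genes and 9 distinct IGKV8-16 junctions, and none was class-switched. IGKV8-16 was the minor chain in 13 cells and the major chain in 11, with a median of 23.5 UMIs. It was also in 2 of 101 kappa-lambda cells, in 1 of 1171 kappa chains of barcodes with 2 heavy and 2 light chains, and in 0 of 1851 kappa chains of barcodes with no heavy chain (a share of up to 0.162% is allowed by a count of 0).

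IGKV11-125 (chr6:67913573-67914052) was at 20 of 2636 chains (0.759%) against 18 of 15040 (0.120%), higher in 6 of 6 libraries. Its log2 fold change was 2.59 ± 0.57 (SE) in the filtered fit. In the edgeR fit with no minimum it was 2.61 (adjusted p = 0.000367). IGKV1-135 (chr6:67609713-67610508), near the far end of the locus from the J genes, was at 6.18% against 2.97%, a log2 fold change of 1.06 ± 0.15 (adjusted p = 6.02e-10). By library its share was 5.58% against 2.59% in the 5xFAD dCLN, 5.23% against 3.60% in the WT dCLN, 8.58% against 2.38% in the 5xFAD sCLN, 5.94% against 2.94% in the WT sCLN, 6.21% against 2.28% in the 5xFAD iLN, and 6.89% against 4.07% in the WT iLN. The kappa-kappa share was the higher in each library and the ranges did not overlap. An IGKV1-135 chain was in 161 of 1318 kappa-kappa cells (12.2%), and in barcodes with 2 heavy and 2 light chains the gene was at 3.42% (2.45 to 4.62).

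IGKV4-69 was higher by 2.44 ± 0.68 (log2, 12 chains against 12) in the filtered fit. In the edgeR fit with no minimum it was higher by 2.43 (adjusted p = 0.0134). In the filtered fit IGKV1-88 was higher by 1.70 ± 0.55, IGKV4-58 by 1.41 ± 0.50 and IGKV16-104 by 0.71 ± 0.26. The 4 lower genes were IGKV3-12 (-0.94 ± 0.33), IGKV12-46 (-0.72 ± 0.22), IGKV6-15 (-0.59 ± 0.19) and IGKV10-96 (-0.44 ± 0.16). IGKV10-96, the most used V gene of cells with 1 kappa chain, was at 4.25% against 5.74% and lower in 6 of 6 libraries (adjusted p = 0.0457). Of the next most used genes, IGKV1-117 (-0.26 ± 0.18), IGKV6-23 (-0.47 ± 0.20) and IGKV6-17 (-0.25 ± 0.19) did not pass. The fits with a library left out used the same minimum, so the limit above for IGKV8-16, IGKV11-125 and IGKV4-69 holds for them. The call for IGKV4-69 held in the 4 fits that tested it. Calls for IGKV8-16, IGKV11-125 and IGKV1-135 held with each library left out. Those of IGKV1-88, IGKV4-58, IGKV16-104, IGKV3-12, IGKV12-46, IGKV6-15 and IGKV10-96 were lost when 1 library was left out, in 2 to 5 of the 6 fits each; without the 5xFAD dCLN library, all of these but IGKV6-15 were lost. Called genes numbered 4 without the 5xFAD dCLN library, 5 without the 5xFAD iLN and 7 without the WT sCLN or the WT iLN, and DESeq2 called 4 higher and 0 lower.

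Over families, IGKV6 was at 12.8% of chains of kappa-kappa cells against 17.3% of cells with 1 kappa chain, lower in 6 of 6 libraries. None of its 8 tested genes had a positive log2 fold change and 1 was called lower (median -0.43, against -0.10 over all 78 genes). IGKV1 was at 13.5% against 10.6%, with 2 of its 6 tested genes called higher and none lower, against 8.97% and 5.13% of all tested genes. Without IGKV1-135 the family was at 7.84% against 7.89%, so that gene carried the difference. By position, the 32 V genes nearest the J genes were at 29.3% against 34.1% (lower in 6 of 6 libraries). The 32 farthest were at 40.7% against 37.0% (higher in 6 of 6). All 9 IGKV6 genes are among the nearest 32. The mean difference over libraries was -4.99 points for the nearest genes and -4.75 points for IGKV6. Whether the nearest genes differ without IGKV6 was not tested. The mean distance of the V gene from the J genes was greater in kappa-kappa cells by 129 ± 58.0 kb (SD over 6 libraries; 1524 against 1397 kb over all chains; exact p = 0.031, adjusted p = 0.0625 over 8 measures). V genes on the strand of the J genes, which join by deletion, were at 45.5% against 41.9% (difference 3.46 ± 2.32 points; 6 of 6; exact p = 0.031, adjusted p = 0.0625). IGKV1-135, distant and on that strand, supplied much of these differences. Without it, in an alternative added after seeing the data, strand shares were 41.9% against 40.1% (1.47 ± 2.09 points; higher in 5 of 6; exact p = 0.156). The farthest genes were then at 36.8% against 35.0% (5 of 6), and the mean distance was 1419 against 1344 kb (5 of 6, exact sign-flip p = 0.0625). The nearest genes, with IGKV6 still among them, were at 31.3% against 35.1% (lower in 6 of 6). Within a cell, the chain with the more downstream J gene was the one with the more distant V gene in 46.2% of pairs that differed in both, below 50% in 6 of 6 libraries (exact p = 0.031, adjusted p = 0.0625). A reference of 50% assumes that V distance and J gene are independent within a chain. No baseline from cells with 1 kappa chain was computed, so no conclusion is drawn. IGKV1-135 had IGKJ1 in 89 of 163 chains, against 29.9% of all kappa-kappa chains, and its part in this measure was not tested.

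**Figure D4:**
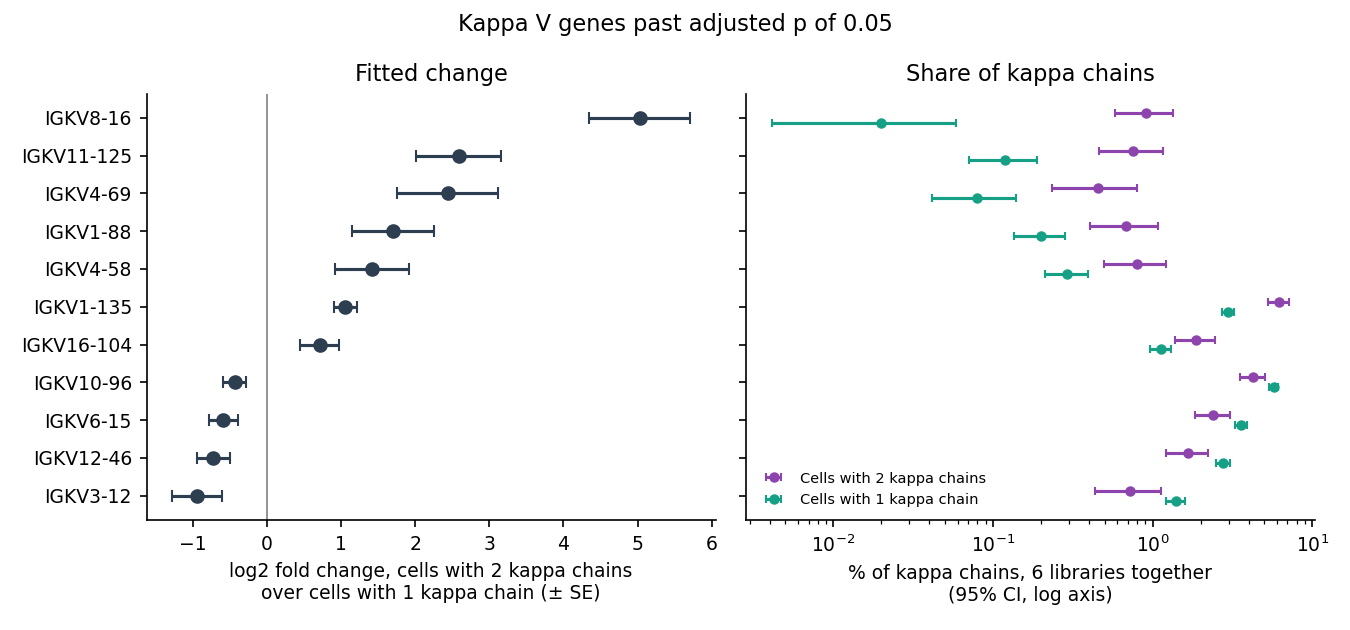
The 11 kappa V genes that passed the adjusted threshold in kappa-kappa cells (rows). Left, log2 fold change of kappa-kappa cells over cells with 1 kappa chain with its SE (x axis); right, the percent of kappa chains in each (log x axis) with exact 95% intervals, purple for kappa-kappa cells and green for cells with 1 kappa chain. IGKV8-16 stands apart at 0.910% against 0.0199%, and IGKV1-135 is the most used of the higher genes at 6.18% against 2.97%.

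For IGKV8-16, IGKV11-125 and IGKV1-135, the most frequent junction of each in kappa-kappa cells is printed with the J-assigned bases in capitals. That of IGKV8-16 was found in 7 of 24 chains over 4 libraries and in 0 cells with 1 kappa chain. That of IGKV11-125 was found in 7 of 20 chains over 4 libraries, and in 1 cell with 1 kappa chain. That of IGKV1-135 was found in 31 of 163 chains over 6 libraries, and in 66 cells with 1 kappa chain.
IGKV8-16 and IGKJ1: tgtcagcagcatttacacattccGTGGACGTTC
IGKV11-125 and IGKJ1: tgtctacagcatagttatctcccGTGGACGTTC
IGKV1-135 and IGKJ1: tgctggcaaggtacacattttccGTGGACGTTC

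In the kappa V genes of the 101 kappa-lambda cells, none of 75 passed the adjusted threshold in edgeR (0.0% higher and 0.0% lower; 8 had an unadjusted p below 0.05). DESeq2 called 32 lower and edgeR with TMM scaling 34 lower. Those scalings moved the median log2 fold change of all genes to -1.71 and -2.88, from -0.48. IGKV6-23 was in 0 of 101 chains (exact 95% upper limit 3.59%) against 3.13% of cells with 1 kappa chain. Heavy V genes also gave no call: 0 of 82 (0.0% higher and 0.0% lower; 3 at an unadjusted p below 0.05; 0 by DESeq2). IGHV1-26, the most used heavy V gene, was at 5.30% against 6.29% (log2 -0.21 ± 0.21, adjusted p = 0.914). Among heavy J genes, IGHJ1 was at 21.3% against 18.6%, higher in 6 of 6 libraries by 2.65 ± 0.679 points (exact p = 0.031, adjusted p = 0.141).

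Which V gene a chain used went with whether it was the minor or the major chain of its cell. Of 48 genes with enough chains, 12 were more frequent among minor chains (25.0%) and 13 among major chains (27.1%), at an edgeR adjusted p below 0.05. Of 25 IGKV4 genes seen, 7 had enough chains to be tested. All 7 were called higher among minor chains (median log2 fold change 2.47, against -0.11 over all 48 genes). The family made up 27.1% of minor chains (24.7 to 29.6) and 5.92% of major chains (4.71 to 7.33). IGKV4-68 was the minor chain in 36 cells and the major chain in 5 (log2 2.67 ± 0.58, adjusted p = 0.000353), IGKV4-72 in 31 and 5 (2.47 ± 0.65), IGKV4-55 in 24 and 3 (2.70 ± 0.77) and IGKV4-58 in 19 and 2 (2.85 ± 0.78). Outside that family, IGKV16-104 was the minor chain in 42 cells and the major chain in 7 (2.45 ± 0.54, adjusted p = 0.000353), and IGKV8-30 in 30 and 6 (2.17 ± 0.62). The minimum was counted over both ranks. Each gene named here reached it only with its minor chains, so its p-value may not be independent of the difference. In the edgeR fit with no minimum, 13 of 97 genes were called higher and 12 lower, and 22 of these calls were also made here.

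The genes of the major chain included IGKV3-7, minor in 2 cells and major in 22, a ratio of 0.0909 with a counting interval of 0.0104 to 0.370 (adjusted p = 0.00230). IGKV1-117 was minor in 14 cells and major in 70 (log2 -2.26 ± 0.31, adjusted p = 1.25e-07), IGKV6-13 in 7 and 31 (-2.02 ± 0.60) and IGKV6-17 in 15 and 54 (-1.81 ± 0.37). Like IGKV3-7, these genes reached the minimum only with their major chains, and the same limit holds for their p-values. IGKV6 as a family made up 7.89% of minor and 17.8% of major chains, with 4 of its 7 tested genes called lower among minor chains and none higher. IGKV8-16, in contrast, was minor in 13 cells and major in 11 (0.23 ± 0.65, adjusted p = 0.772). TMM scaling gave 14 higher and 9 lower, and moved the median of all genes to 0.07. Left out in turn, the WT dCLN library gave 15 called genes and the others 17 to 21, and DESeq2 gave 6 higher and 4 lower.

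The rank of a V gene in kappa-kappa cells followed its level in the separate cells with 1 kappa chain. Over 46 V genes with at least 20 chains in each kind of cell, the share of chains that were minor correlated with the median log2 level, relative to the library median, at Pearson's r of -0.91 and Spearman's rho of -0.88. It was -0.85 over the 19 genes on the strand of the J genes and -0.93 over the 27 on the opposite strand. These are descriptions across genes, which share libraries and amplification. IGKV1-117 had a median of 44 UMIs in cells with 1 kappa chain and was minor in 16.7% of its chains, and IGKV1-135 had 30 and was minor in 39.9%. Orientation went with both measures: V genes on the strand of the J genes were at 36.8% of minor chains against 54.3% of major chains, lower among minor chains by -18.1 ± 3.10 points (SD; 6 of 6 libraries; exact p = 0.031, adjusted p = 0.0625). In cells with 1 kappa chain the genes on that strand had a median of 34 UMIs, against 25 for the opposite strand. In the 562 barcodes with 2 heavy and 2 kappa chains, genes on that strand were at 36.3% of minor chains against 47.5% of major chains. How far primer or capture efficiency sets these levels was not tested.

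**Figure D5:**
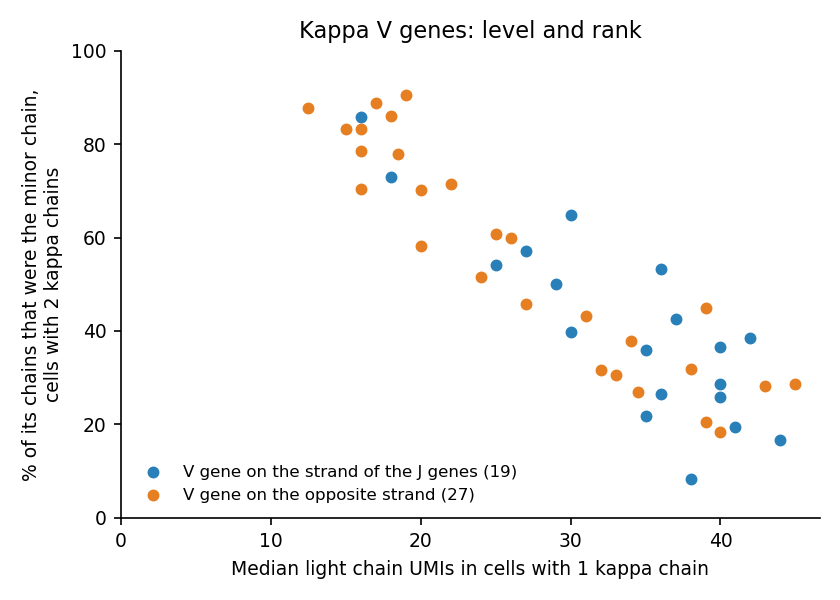
Each point is a kappa V gene with at least 20 chains in each kind of cell, by its median light chain UMIs in cells with 1 kappa chain (x axis) and the percent of its chains in kappa-kappa cells that were the minor chain (y axis). Blue points are the 19 genes on the strand of the J genes and orange points the 27 on the opposite strand. Genes further right have lower percents on both strands, and r, computed with the log2 level relative to the library median, was -0.91 over the 46 genes.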

How the data were processed

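Single-cell B cell receptor libraries were analysed from 6 libraries of a known node and genotype. The authors deposited 1 table per library with a line per contig, holding UMI and read counts and V identity as a fraction, per the file headers. The submitters' processing notes name the build mm10, Seurat 4.1.0 and Cell Ranger 6.0.1; the germline set is not given in the sources used here. In the tables no barcode has more than 2 heavy or 2 light contigs, and only 2 of 1906 barcodes without a heavy chain have 2 light chains, so some selection of contigs preceded deposit. No doublet caller was run. The libraries held 99906 to 312484 immunoglobulin UMIs. Of distinct barcodes, 174 of 17206 occurred in more than 1 library, among them 23 of the 1434 cells with 2 light chains.

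Cells were classed by their heavy and light contigs, and the chains of a cell were ranked by UMIs, ties in a fixed order. V mutation was counted on aligned bases against the germline in the tables. Shares have exact Clopper-Pearson 95% intervals, differences square-and-add intervals, and a count of 0 the limit of 3 counts; all cover counting error only. Measures were compared over 6 libraries, or 3 nodes, by exact two-sided sign-flip tests with Benjamini-Hochberg adjustment. V genes with at least 20 contigs were tested on contig counts per library and kind of cell with edgeR 4.0.16 (quasi-likelihood, library as a block, no TMM scaling), with DESeq2 1.42.0 as an alternative. Libraries are not stated to be separate animals, so p-values measure only the spread between libraries. In these fits and in the sign-flip tests, cells with 2 light chains and their comparison cells came from the same libraries. Positions are from GENCODE M21 on GRCm38, in which 98 of 99 kappa V names were found. Named genes were, per test, up to 8 higher and 8 lower by fold change among those called (5 for heavy V genes), the 5 most used, all J and lambda genes and isotypes, and up to 5 recurrent receptors. The members and lists were chosen with earlier results of these data known.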

Additional observations from a re-analysis of the deposited data

Results flagged for a closer look

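The share of kappa-kappa cells, 5xFAD minus WT, was -1.79 points between the dCLN libraries and -0.748 between the iLN libraries, but 0.0980 between the sCLN libraries. The share of kappa-lambda cells, 5xFAD minus WT, was 0.342 points between the dCLN libraries, against -0.155 for sCLN and -0.352 for iLN. Each is 1 library against 1 library, and the difference between nodes was not tested. A further library that mixed nodes and genotypes, which entered no comparison, had 2 light chains in 12.1% of its cells (10.9 to 13.5; 300 of 2472), with an interval above those of the 6 other libraries. Of its barcodes with a heavy chain 5.51% had 2 heavy chains, within the range of 2.59% to 5.62% in the others.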

How the results depend on the processing

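No paired analysis was possible because, beyond the pairing within libraries and nodes that the tests already use, the labels give no replicate numbers. Not counting minor chains seen in another barcode lowered the share of cells with 2 light chains to 1.76%, 1.93% and 1.68% in the 5xFAD dCLN, sCLN and iLN libraries, against 1.45%, 1.52% and 1.70% in WT, and turned the 5xFAD minus WT mean over nodes to 0.231 points (exact p = 0.5). Thinning to 20 light chain UMIs left out the cells with fewer, 606 to 1033 per library. Among the cells kept it gave 10.2%, 9.93% and 10.6% in 5xFAD against 13.4%, 10.0% and 11.3% in WT. Median light chain UMIs were 25 to 31 in cells with 1 light chain and 45 to 55 in cells with 2. These shares are therefore of a selected set and are not comparable with the unthinned ones. Thinning to 5 left out 19 to 55 cells per library. It gave 7.18% in the 5xFAD dCLN against 8.61% in the WT dCLN, and 6.92% in the WT sCLN. Leaving out a node gave -1.18 to -0.542 points.

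Between cells with 2 and 1 light chains, small differences changed sign. The switched share was 0.0513 points with identical barcodes counted as 1 cell, 0.0573 for kappa-kappa against kappa cells and -0.432 to 0.446 with a library left out. The IgD share was 0.269 with cells weighted by heavy UMIs, and the share of IgM and IgD cells with a mutated heavy V -0.177 to 0.0293 with a library left out. Cells sharing a heavy junction differed by 0.226 points with identical barcodes as 1 cell and 0.00421 for kappa-lambda cells, whose heavy junction length differed by -0.00385 bases. With a library left out, kappa-kappa cells ranged over -0.253 to 1.31 points for IGKJ1, -0.0547 to 1.53 for IGKJ4 and -0.704 to 0.522 for IGKJ5. Kappa-lambda cells ranged over -2.56 to 8.68 for IGKJ4, -0.279 to 8.05 for IGLV1 and -3.09 to 4.46 for IGLJ1, and heavy chains over -1.58 to 0.0507 for IGHJ3 and -0.366 to 0.485 for IGHJ4.

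Called V genes of kappa-kappa cells numbered 4 with DESeq2, 19 with no filter and 4 to 9 with a library left out. For kappa-lambda cells they were 34 with TMM, 32 with DESeq2, 3 with no filter and 0 to 1 with a library left out. Between minor and major chains they were 10 with DESeq2 and 15 to 21 with a library left out. IGKV8-16, minor against major, was at a log2 of -0.000277 with identical barcodes as 1 cell and -0.0148 to 0.51 with a library left out. In kappa-lambda cells IGKV1-117 ranged over -1.60 to 0.14 and IGKV6-17 over -0.43 to 0.23. IGHV1-81 was at -0.0303 with TMM, -0.11 with DESeq2 and -0.12 to 0.18 with a library left out, and IGHV8-8 at -0.00323 with DESeq2. Among heavy V genes the median log2 fold change of all genes was -0.02, against -0.12 with TMM and -0.21 with DESeq2. The causes were not tested.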

Other observations

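In the further library that mixed nodes and genotypes, none of its 300 receptors with 2 light chains was found in the 6 other libraries, and its gene shares are given as values. IGKV1-135 was at 6.20% of 548 kappa chains of its kappa-kappa cells (4.33 to 8.56), against 3.63% of its 2041 cells with 1 kappa chain (2.86 to 4.53). IGKV8-16 was in 2 of 548 chains against 0 of 2041 (up to 0.147% allowed), and IGKV11-125 in 2 of 548 against 1 of 2041. IGKV16-104 was at 2.01% against 1.23%, and IGKV10-96 at 4.93% against 5.10%. Of the other genes called lower in the 6 libraries, IGKV12-46 was at 2.92% against 2.55%. IGKV6-15 was at 3.83% against 4.41%, and IGKV3-12 at 0.547% (3 chains) against 1.42%. V genes on the strand of the J genes were at 38.0% of minor chains (32.2 to 44.0) against 51.1% of major chains (45.0 to 57.2). Over both chains they were at 44.5% (40.3 to 48.8), against 45.1% (42.9 to 47.3) of its cells with 1 kappa chain. The higher share of these genes in kappa-kappa cells of the 6 libraries was thus not seen in this library. IGKJ5 was used by 8 of its 24 kappa-lambda cells (33.3%, 15.6 to 55.3) against 25.4% of its cells with 1 kappa chain (23.5 to 27.3). IGLV3 was in 1 of 24 kappa-lambda cells against 19 of 131 cells with 1 lambda chain (14.5%, 8.96 to 21.7).

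V genes found in kappa-kappa cells and not in cells with 1 kappa chain were IGKV20-101-2, in 3 chains of 2636, each the minor chain, and IGKV18-36, in 1 chain. A count of 0 in 15040 cells allows a share of up to 0.0199%.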
